A study of Mus musculus with 12 samples.

Results

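The 44 genes described here are RNA polymerase I and ribosome biogenesis genes of the mouse, chosen by name as nucleolar and polymerase I factors, with the Treacher Collins genes Tcof1, Polr1c and Polr1d among them. All 44 were found among the 24421 gene symbols of the deposited count table, and all 44 were among the 14810 genes tested. By role they comprised 9 genes of polymerase I transcription, 6 of the small nucleolar ribonucleoproteins (snoRNPs), 15 of 40S subunit processing, 11 of 60S subunit assembly and 3 abundant nucleolar proteins with several functions.

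RNA sequencing was done on 12 libraries from C57Bl/6 mouse embryos in which Eftud2 had been altered in neural crest cells, the source of much of the facial skeleton and cranial ganglia. Eftud2 encodes a spliceosomal GTPase that belongs to the U5 particle, and changes in the human gene cause a mandibulofacial dysostosis. There were 4 groups of 3 untreated libraries: heterozygous embryos (Eftud2+/-, the controls) and homozygous mutants (Eftud2-/-), each collected at 2 stages, embryonic days 9.0 (E9.0) and 9.5 (E9.5). The controls thus carried 1 altered allele, and no group without one was analysed here. The labels disagree on what was sampled: neural crest cells, ganglia of the cranial nerves and heads are all given. They name neither the Cre driver nor the number of embryos per library. Nothing states that the libraries of a group came from separate embryos, so p-values measure the spread between libraries, which may be technical.

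RNA polymerase I transcribes the 45S ribosomal RNA precursor in the nucleolus, where snoRNPs modify it and large processing complexes cut and fold it into the 40S and 60S subunits. Neural crest cells are known to be sensitive to loss of this pathway: mutations of TCOF1, POLR1C and POLR1D cause Treacher Collins syndrome, a craniofacial disorder. Nearly every gene of the pathway is needed in all dividing cells, and many of its promoters are known targets of Myc proteins, which bind the E-box CACGTG.

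The libraries held 13914543 to 31172708 counts and 17311 to 19783 detected genes. Eftud2 itself stood at 302, 275 and 279 CPM (counts per 1000000 library counts) in heterozygous libraries of E9.0 and at 236, 235 and 232 in the homozygous ones, without overlap (log2 difference -0.29 ± 0.05 SE, adjusted p = 0.0193 by edgeR's quasi-likelihood test with Benjamini-Hochberg adjustment over all genes). At E9.5 it stood at 248, 255 and 264 CPM against 226, 221 and 226 (-0.19 ± 0.05, edgeR adjusted p = 0.0906). Heads, if they were the source, hold many cells outside the neural crest. In bulk RNA of mixed cells, fewer cells of a type and less RNA per cell cannot be told apart. The 45S precursor row, Rn45s, took 37.4% of all counts in heterozygous E9.0 replicate 1, 6.05% to 16.2% in the other E9.0 libraries and 4.40% to 5.90% at E9.5. Levels are therefore CPM on library sizes scaled by the trimmed mean of M values (TMM), and heterozygous E9.0 replicate 1 was left out in turn. Without it, the log2 differences of members at E9.0 and in the heterozygous stage comparison moved by at most 0.12, and the Eftud2 difference at E9.0 was -0.25 ± 0.05 and no longer past the threshold (edgeR adjusted p = 0.0645).

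The members were well measured: the lowest count of any member in any library was 567, for Polr1e. Per kilobase of the annotated coding transcript, Npm1 was the most abundant at 1740 CPM per kb, followed by Ncl at 239, Fbl at 145, Nop56 at 130 and Mybbp1a at 113. Imp4 (11.0), Polr1a (18.2), Noc3l (18.5), Nol6 (20.2) and Utp20 (21.6 CPM per kb) were the lowest. The annotated transcripts of Nop58 (9507 bases), Ncl (8.202 kb) and Imp4 (5.836 kb) are long, which lowers their values on this scale. Nucleolin (Ncl) and nucleophosmin (Npm1) alone held 39.1% to 44.9% of the counts of the 44 genes. Reads of Npm1 can also come from its pseudogenes, so its level is uncertain. Exons of 18 members overlap an annotated gene on the other strand, and the strand setting of the counting is not given in the sources used here.

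The promoters of the members are shown where they hold the E-box, since Myc and Mycn are described with the members below. Promoter sequences (RefSeq, GRCm38.p6, 250 bases before to 50 after each gene's start) were at hand for 37 of the 44 members. The palindrome CACGTG lay in 10 of these 37 (27.0%), against 8.09% of all 27025 genes with a promoter and 11.5% of the 11036 of them that were tested here. A match is a description of the letters, not a binding site. The matches follow, 5′ to 3′ on the gene's strand with the E-box in capitals and up to 12 bases on each side; Rrn3, a polymerase I initiation factor, holds a pair.
Rrn3, chr16:13780472-13780501, + strand: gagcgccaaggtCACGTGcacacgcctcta
Rrn3, chr16:13780639-13780668, + strand: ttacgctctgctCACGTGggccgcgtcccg
Wdr43, chr17:71616220-71616249, + strand: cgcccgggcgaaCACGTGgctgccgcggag
Utp20, chr10:88826765-88826789, - strand: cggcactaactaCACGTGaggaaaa
Imp4, chr1:34439696-34439725, + strand: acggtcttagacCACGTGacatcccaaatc
Tsr1, chr11:74898092-74898121, + strand: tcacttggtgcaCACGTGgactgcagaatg
Ltv1, chr10:13193092-13193121, - strand: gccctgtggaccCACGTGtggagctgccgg
Pno1, chr11:17211540-17211564, - strand: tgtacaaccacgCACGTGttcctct
Pes1, chr11:3963965-3963994, + strand: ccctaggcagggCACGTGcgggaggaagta
Nop2, chr6:125131811-125131840, + strand: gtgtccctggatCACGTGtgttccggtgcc
Mybbp1a, chr11:72441355-72441376, + strand: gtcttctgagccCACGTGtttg
Of the 11 matches, 7 began within 41 bases after the gene's start and 4 lay before it, from position -215 to -48. The ETS-type motif CCGGAAG, searched on both strands, lay in 11 of the 37 member promoters (29.7%), against 9.93% of all genes and 18.3% of those tested, and Rrn3, Tsr1, Ltv1 and Nop2 held both motifs.

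The most uniform feature of the 44 genes was their fall between the stages. On the TMM scale, all 44 had a lower fitted level at E9.5 than at E9.0 in both genotypes (26 and 40 of 44 with total counts only); the median member fell by 24.7% in heterozygous libraries and fell by 27.3% in homozygous ones. In heterozygous libraries 37 of 44 fell past an adjusted p of 0.05 and 0 rose, while of all genes tested 16.0% fell and 19.2% rose (edgeR's quasi-likelihood test, Benjamini-Hochberg adjustment over 14810 genes). In homozygous libraries 40 of 44 fell and 0 rose, against 15.8% of all genes that fell and 19.6% that rose. The median log2 difference of the members was -0.41 and -0.46, against 0.01 for all genes in both genotypes. Without heterozygous E9.0 replicate 1, 38 members fell in heterozygous libraries, Polr1c being the addition (-0.18 ± 0.06, edgeR adjusted p = 0.0313), and the median was -0.39. In that fit 29.7% of all genes were called in either direction. For the 5 members with the largest heterozygous falls over all 12 libraries, the differences in that fit were -0.84 for Ncl, -0.66 for Ddx21, -0.65 for Fbl, -0.51 for Rrs1 and -0.42 for Tcof1.

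**Figure D1:**
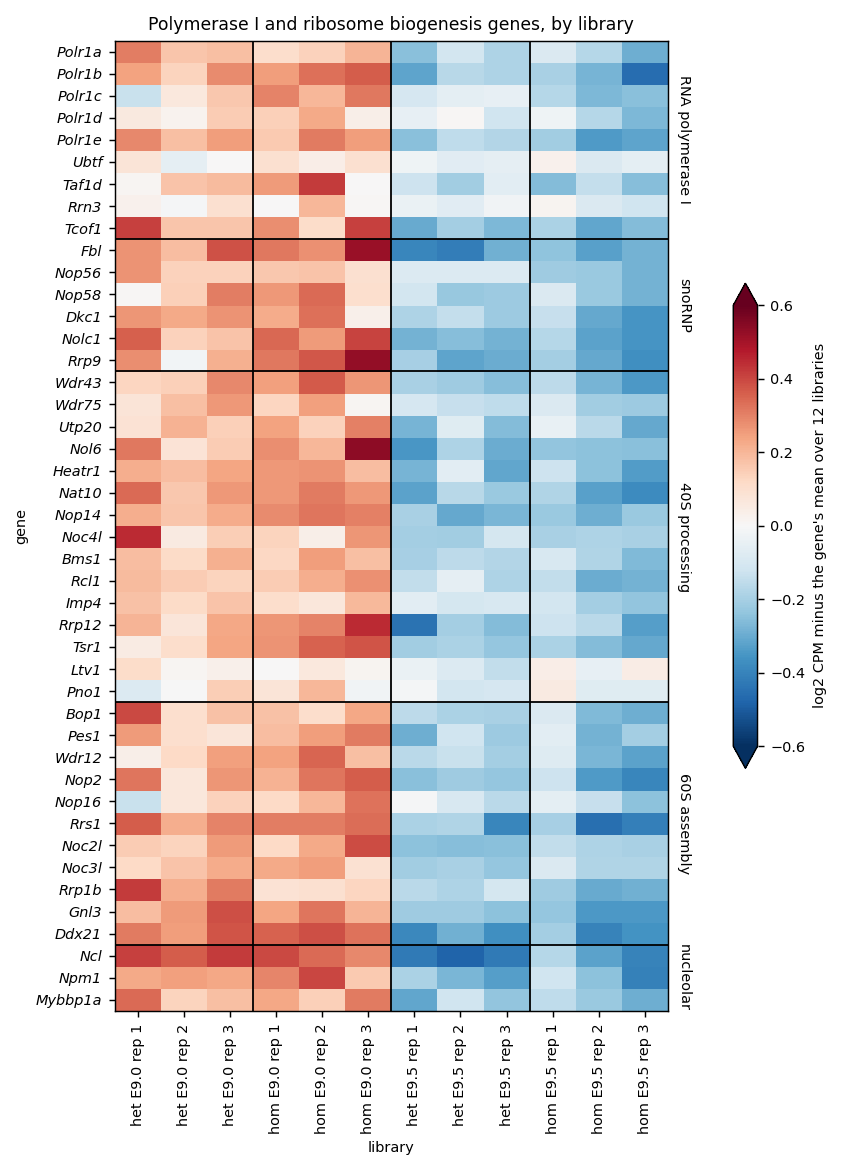
Each cell gives the log2 CPM of a gene (row) in a library (column) minus that gene's mean over the 12 libraries, with genes grouped by role; red is above and blue below the mean. The 6 E9.0 columns are mostly red and the 6 E9.5 columns mostly blue, and the rows of Ubtf, Rrn3, Ltv1 and Pno1 are the palest.

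The CPM of the E9.0 and E9.5 libraries did not overlap for 40 members in heterozygous embryos (22.5% of all genes tested were lower without overlap) and for 41 in homozygous embryos (22.1% of all genes). The 37 members that fell in heterozygous libraries also fell in homozygous ones, where Polr1c, Polr1d and Nop16 were added. Falls in both genotypes were found for 1505 of the 14810 genes, or 10.2%. Ubtf, Rrn3, Ltv1 and Pno1 did not pass the test in either genotype. As a share of all counts other than Rn45s, which does not use the TMM factors, the 44 genes took 1.40% to 1.54% in the E9.0 libraries and 1.04% to 1.16% in the E9.5 libraries. Without Ncl and Npm1, the other 42 genes took 0.783% to 0.854% at E9.0 and 0.620% to 0.669% at E9.5, so the ranges did not overlap either.

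**Figure D2:**
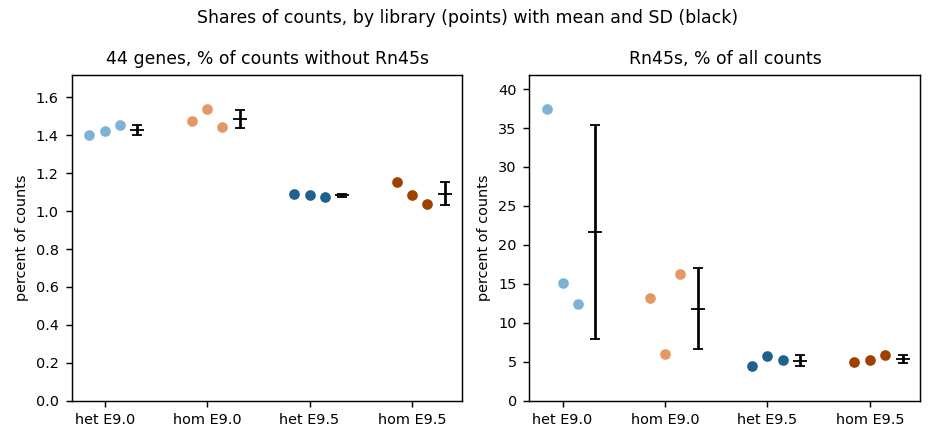
The left panel plots the summed counts of the 44 genes as a percentage of each library's counts without Rn45s, and the right panel plots Rn45s as a percentage of all counts; points are libraries, and black marks are the mean and SD of 3. The member share lies between 1.40% and 1.54% at E9.0 and between 1.04% and 1.16% at E9.5, while Rn45s reaches 37.4% in a single heterozygous E9.0 library.

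Among the genes of polymerase I transcription, 5 of 9 fell in heterozygous and 7 of 9 in homozygous libraries, with median log2 differences of -0.26 and -0.46. Tcof1 encodes treacle, a nucleolar scaffold that recruits polymerase I to the ribosomal RNA genes. It stood at 209, 177 and 177 CPM in heterozygous E9.0 libraries and at 128, 137 and 131 at E9.5. In homozygous libraries it went from 191, 170 and 209 CPM to 138, 127 and 131. All E9.5 libraries were thus below all E9.0 libraries (log2 difference -0.51 ± 0.08, adjusted p = 1.32e-04 in heterozygous and -0.53 ± 0.08, adjusted p = 9.53e-05 in homozygous libraries, by edgeR).

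The largest subunits of the enzyme, Polr1a and Polr1b, fell in both genotypes as well. Polr1a stood at 206, 186 and 188 CPM in heterozygous E9.0 libraries and at 140, 154 and 146 at E9.5 (-0.40 ± 0.06, edgeR adjusted p = 1.92e-04). Polr1b went from 127, 134 and 137 CPM to 93.0, 87.6 and 77.5 in homozygous libraries (-0.62 ± 0.07, edgeR adjusted p = 5.98e-06). Polr1c and Polr1d, the subunits shared with RNA polymerase III, did not pass the test in heterozygous libraries (Polr1c passed there without replicate 1 of E9.0) and fell in homozygous ones; the difference between the genotypes did not pass the edgeR test for either. Polr1d stood at 77.5, 75.5 and 82.7 CPM at E9.0 and at 72.1, 74.8 and 68.7 at E9.5 (-0.13 ± 0.07, edgeR adjusted p = 0.167), and in homozygous libraries it differed by -0.29 ± 0.07 (adjusted p = 0.00476 by edgeR).

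Ubtf, which encodes the factor that keeps ribosomal RNA genes in an open state, was the member of this role with the smallest stage difference in heterozygous libraries. It stood at 230, 210 and 218 CPM at E9.0 and 214, 207 and 210 at E9.5, with overlap (-0.06 ± 0.05, edgeR adjusted p = 0.415). In homozygous libraries it stood at 233, 224 and 233 CPM and then at 222, 205 and 209 (-0.12 ± 0.05, edgeR adjusted p = 0.107). The initiation factor Rrn3 differed by -0.08 ± 0.06 and -0.14 ± 0.06 and did not pass the test in either genotype (adjusted p of 0.334 and 0.104 by edgeR).

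All 6 snoRNP genes fell in both genotypes, with medians of -0.43 in heterozygous and -0.54 in homozygous libraries. Fbl encodes fibrillarin, the methyltransferase of box C/D snoRNPs. Its level was 204, 192 and 220 CPM in heterozygous E9.0 libraries and 129, 127 and 139 at E9.5 (-0.64 ± 0.07, edgeR adjusted p = 4.74e-06). In homozygous libraries it was 211, 205 and 243 CPM and then 143, 135 and 139 (-0.66 ± 0.07, edgeR adjusted p = 3.54e-06). Rrp9, the U3 snoRNP protein, had the largest fall of all members in homozygous libraries, from 87.1, 90.7 and 101 CPM to 60.8, 56.7 and 54.4 (-0.70 ± 0.08, edgeR adjusted p = 5.61e-06). In heterozygous libraries it fell by 0.43 on the log2 scale (SE 0.08).

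Of the 15 genes of 40S processing, 13 fell in each genotype, with medians of -0.35 and -0.46. Nop14 had little spread, at 82.6, 79.9 and 83.0 CPM in heterozygous E9.0 libraries and 62.3, 57.6 and 58.8 at E9.5 (-0.46 ± 0.05, edgeR adjusted p = 7.60e-06). The 40S export factor Ltv1 had the smallest stage difference of the members in homozygous libraries, where it stood at 63.4, 66.2 and 64.0 CPM at E9.0 and at 65.1, 61.2 and 65.2 at E9.5 (-0.02 ± 0.06, edgeR adjusted p = 0.833). Pno1, an assembly factor of the 40S precursor, differed by -0.10 ± 0.07 and -0.12 ± 0.07. Neither gene passed the test in either genotype, and both hold the E-box shown above, as does Rrn3; the other 7 members with an E-box fell in both genotypes. The 10 members with an E-box had a median stage difference of -0.35 in heterozygous libraries and -0.41 in homozygous ones, and the 27 other members with a promoter had -0.40 and -0.46.

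Of the 11 genes of 60S assembly, 10 fell in heterozygous and 11 in homozygous libraries, with medians of -0.43 in each. Ddx21, a nucleolar RNA helicase, was at 545, 522 and 570 CPM in heterozygous E9.0 libraries and at 336, 359 and 341 at E9.5 (-0.66 ± 0.06, edgeR adjusted p = 7.71e-07). In homozygous libraries it was at 562, 575 and 550 CPM and then at 381, 333 and 342 (-0.68 ± 0.06, edgeR adjusted p = 5.86e-07). Rrs1, which brings the 5S ribonucleoprotein into the 60S precursor, went from 120, 109 and 115 CPM to 82.1, 82.5 and 71.4 in heterozygous libraries (-0.54 ± 0.07) and from 116, 116 and 118 to 81.7, 68.4 and 70.5 in homozygous ones (-0.67 ± 0.07). Both genes were lower in every E9.5 library than in any E9.0 library. Nop16 stood at 57.8, 66.7 and 70.0 CPM in heterozygous E9.0 libraries and at 63.1, 59.4 and 56.7 at E9.5, which overlap (-0.12 ± 0.08, edgeR adjusted p = 0.245). With replicate 1 of heterozygous E9.0 left out, Nop16 differed by -0.19 ± 0.07 (adjusted p = 0.0630).

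The 3 abundant nucleolar genes fell in both genotypes. Ncl had the largest fall of all members in heterozygous libraries, from 2524, 2444 and 2542 CPM to 1413, 1361 and 1415 (-0.84 ± 0.06, edgeR adjusted p = 5.97e-08). In homozygous libraries it went from 2498, 2404 and 2320 CPM to 1686, 1520 and 1439 (-0.64 ± 0.06, edgeR adjusted p = 9.14e-07). Ncl lies at chr1:86344719-86359400 on the minus strand and holds 3 annotated snoRNAs in its introns or exons. Npm1, which encodes a histone chaperone and ribosome export factor, went from 3271, 3316 and 3278 CPM to 2444, 2307 and 2221 in heterozygous libraries (-0.50 ± 0.07) and from 3423, 3688 and 3117 to 2571, 2356 and 2108 in homozygous ones (-0.54 ± 0.07). Mybbp1a, a nucleolar binding partner of polymerase I and of p53, differed by -0.44 ± 0.07 and -0.45 ± 0.07.

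**Figure D3:**
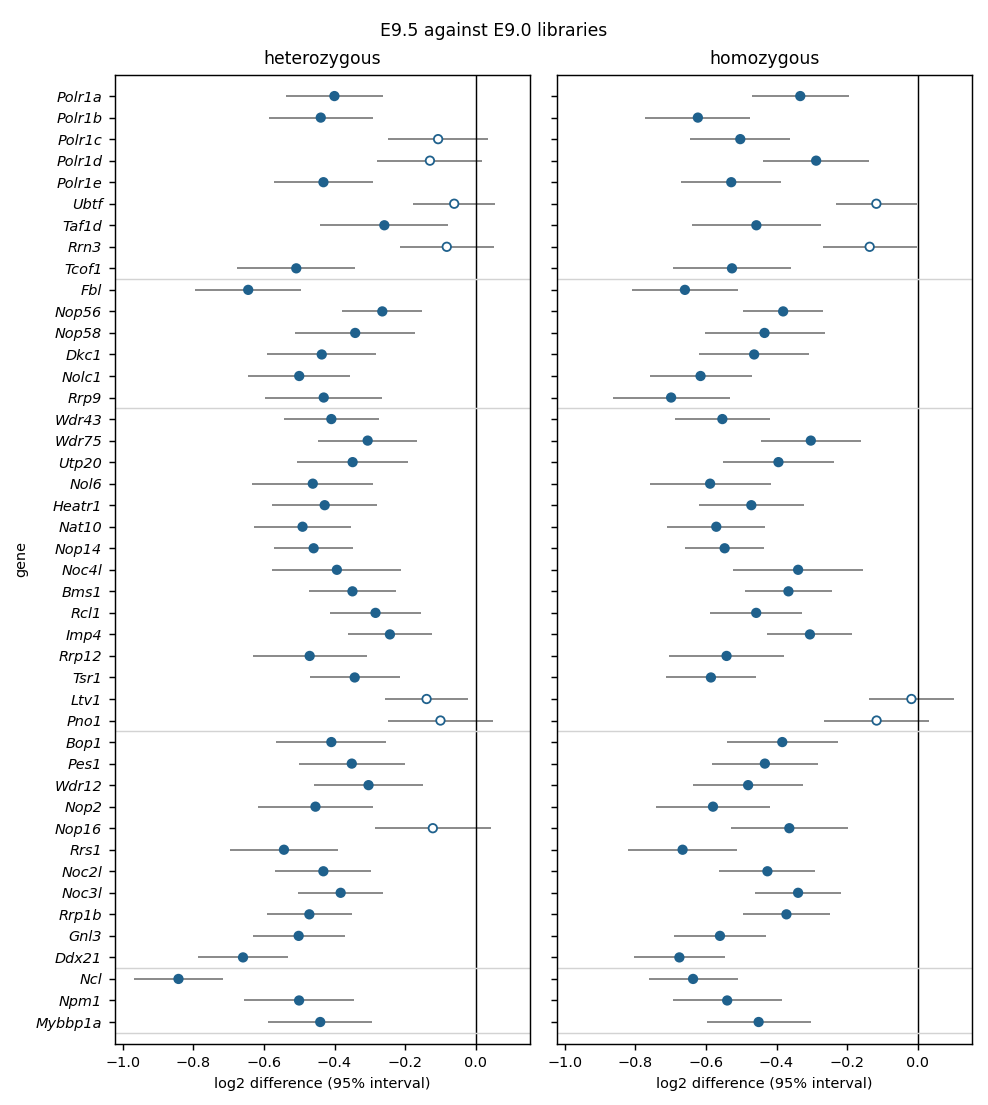
Points give the log2 difference between E9.5 and E9.0 for each gene in heterozygous (left) and homozygous (right) libraries, with 95% intervals; filled points passed an adjusted p of 0.05 in edgeR. All 44 points lie below 0 in both panels, and the open points are 7 genes in heterozygous and 4 in homozygous libraries.

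The fall was seen in relation to the other transcripts of each library, and its size, and for some members its direction, depended on the scaling. With total counts only, so that Rn45s counts in full, the median of all genes moved to 0.38 in heterozygous and 0.18 in homozygous libraries. On this scale 1 member (Ncl) fell in heterozygous libraries, where 47.2% of all genes were called in either direction. In homozygous libraries 11 members fell, where 22.5% of all genes were called in either direction. Fitted differences were below 0 for 26 and 40 of 44. Total counts after the Rn45s row was left out were added after seeing the data. With these, 36 and 40 members fell, where 35.9% and 35.5% of all genes were called in either direction. Of the members, 42 and 43 were below 0, with medians of -0.31 and -0.39 against 0.10 and 0.08 for all genes. The Rn45s row itself was lower at E9.5 in heterozygous libraries (-2.62 ± 0.62, edgeR adjusted p = 0.0120; -1.65 ± 0.40, adjusted p = 0.0201 without heterozygous E9.0 replicate 1) and did not pass the test in homozygous ones (-1.34 ± 0.60, adjusted p = 0.118 by edgeR), where it passed with the same library left out (-1.34 ± 0.37, adjusted p = 0.0269). The share of the Rn45s row ran from 12.5% to 37.4% within the heterozygous E9.0 libraries. Whether this row follows the output of polymerase I was not tested. Markers of other cell types also moved between the stages. All 9 heart muscle markers rose in both genotypes, their sum going from 69.4 to 347 CPM over the E9.0 libraries to 2109 to 3318 CPM at E9.5, with 0 of 9 at 0 counts. The 8 erythroid markers tested, of 10 listed, rose in both genotypes, with sums of 552 to 1216 CPM at E9.0 and 2836 to 5297 CPM at E9.5; the adult globin genes Hba-a1 and Hba-a2 were at or near 0. Of 12 neural crest markers 8 fell and 1 rose in each genotype, and their sum was 843 to 947 CPM at E9.0, 696 to 709 CPM in heterozygous and 522 to 633 CPM in homozygous E9.5 libraries. Of 12 markers of early neurons and ganglia, 9 rose and 2 fell in heterozygous and 8 rose and 1 fell in homozygous libraries, with sums of 149 to 155 CPM at E9.0 and, at E9.5, 242 to 276 CPM in heterozygous and 214 to 221 CPM in homozygous libraries. Of 16 facial mesenchyme markers, 8 rose and 0 fell in heterozygous libraries, and 2 rose and 3 fell in homozygous ones. Of 12 endothelial markers, 0 rose and 6 fell in heterozygous libraries, and 2 rose and 1 fell in homozygous ones. The part of these shifts in the fall of the members was not tested.

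The comparison of the genotypes addresses whether loss of Eftud2 in the neural crest goes with other levels of the members in these libraries. At E9.0, 0 of 44 members passed the test, where 0.587% of all genes did (edgeR's quasi-likelihood test). DESeq2 (1.46% of all genes called) and limma-voom (0.439%) also called 0 members. An unadjusted edgeR p under 0.05 was reached by 6 members, against 13.3% of all genes. Fitted levels were higher in homozygous libraries for 33 members and lower for 11 (all genes: 49% higher, 51% lower), with a median log2 difference of 0.06 against 0.00 for all genes. With total counts only, 43 were higher and 1 lower, and the median was 0.25 against 0.19 for all genes. On the TMM scale the median was 0.05 with heterozygous E9.0 replicate 1 left out, but 0.02 without heterozygous replicate 2 and 0.03 without homozygous replicate 2, each with 17 members lower. The 95% intervals lay within a 1.2-fold change either way for 35 members and within 1.5-fold for all 44, and the largest bound was a 1.33-fold rise, for Rrp9.

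At E9.5, 0 of 44 members passed the test, where 1.89% of all genes did. DESeq2 (3.09% of all genes called) and limma-voom (2.62%) called 0 as well. An unadjusted edgeR p under 0.05 was reached by 3 members, against 13.4% of all genes. Fitted levels were higher in homozygous libraries for 15 members and lower for 29 (all genes: 49.2% higher, 50.8% lower), with a median of -0.02. This lean rested on single libraries: without homozygous E9.5 replicate 1 the median was -0.06 with 35 members lower, without homozygous replicate 2 it was -0.01 with 25 lower, and without homozygous replicate 3 it turned to 0.01 with 18 lower. The intervals lay within a 1.2-fold change for 40 members and within 1.5-fold for all 44. At both stages the intervals describe whole libraries, in which Eftud2 itself differed by -0.29 (E9.0) and -0.19 (E9.5). A change confined to some of the cells was not tested. The same sign at both stages was found for 22 of 44 members and for 57.3% of all genes.

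**Figure D4:**
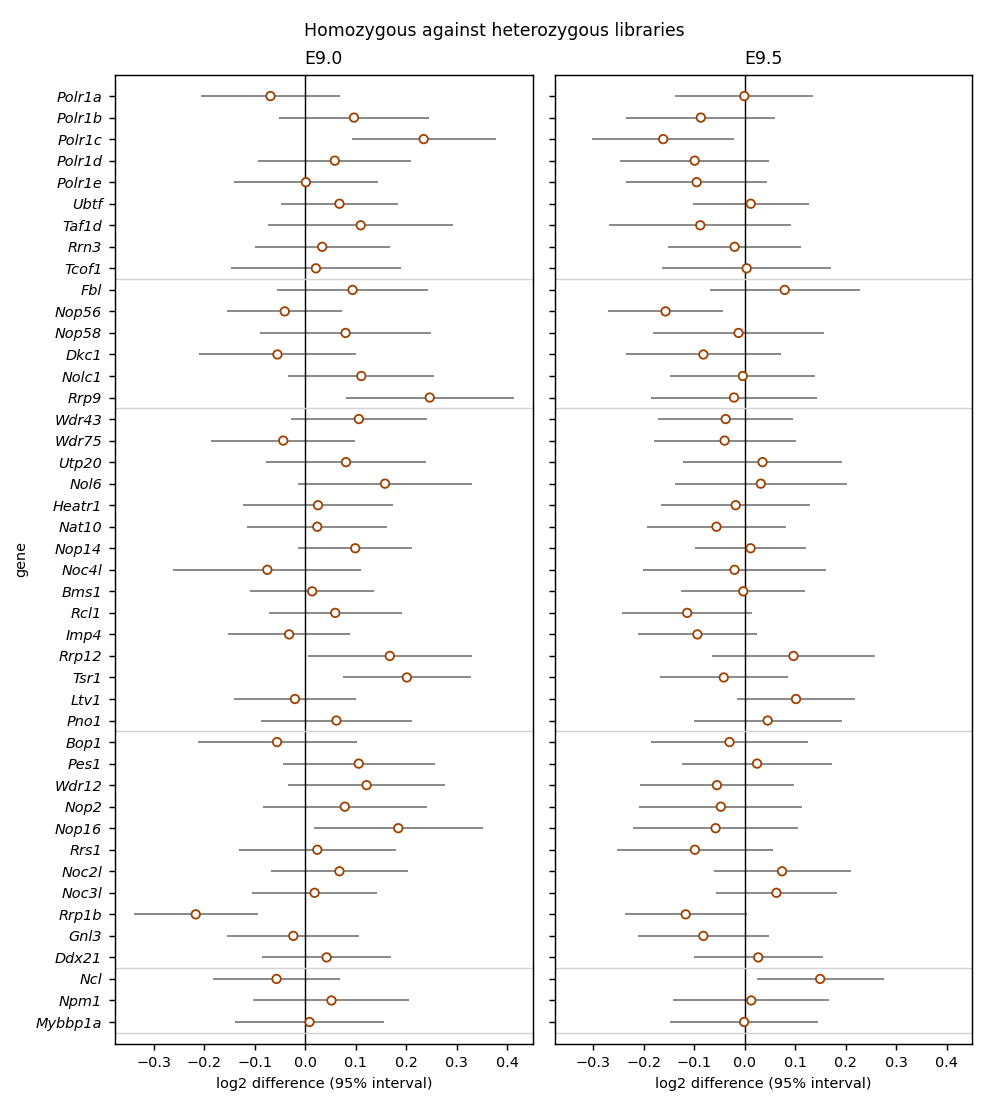
Points give the log2 difference between homozygous and heterozygous libraries for each gene at E9.0 (left) and E9.5 (right), with 95% intervals; a filled point would mark an adjusted p under 0.05 in edgeR. Every point is open, and all lie between -0.22 and 0.25.

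The polymerase I genes tied to Treacher Collins syndrome are given first. Tcof1 gave no difference beyond the spread of the libraries. At E9.0 it stood at 209, 177 and 177 CPM in heterozygous and 191, 170 and 209 in homozygous libraries (0.02, 95% interval -0.15 to 0.19). At E9.5 it stood at 128, 137 and 131 CPM against 138, 127 and 131 (0.00, 95% interval -0.16 to 0.17). The groups overlapped at both stages, and the sign of these small differences changed with the scaling or the libraries used.

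Polr1c (chr17:46243920-46248054, minus strand) had fitted differences of opposite sign at the stages. At E9.0 it stood at 97.8, 112 and 120 CPM in heterozygous and at 132, 123 and 133 in homozygous libraries, and every homozygous library was higher (0.23 ± 0.07, edgeR adjusted p = 0.148). At E9.5 it stood at 99.8, 103 and 104 CPM against 95.1, 88.8 and 90.1, and every homozygous library was lower (-0.16 ± 0.07, edgeR adjusted p = 0.292). The difference between these effects was -0.40 ± 0.09 and did not pass the test (edgeR adjusted p = 0.181). DESeq2 called it (adjusted p = 0.0287), as the single member among 0.568% of all genes called, and limma-voom did not (adjusted p = 0.219). Over the other alternatives and left-out libraries the difference between the effects kept its sign, at -0.58 to -0.32. Without heterozygous E9.0 replicate 1, which had the lowest Polr1c level at E9.0, the E9.0 difference was 0.16 (edgeR adjusted p = 0.277).

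The other subunits showed smaller values. Polr1d stood at 77.5, 75.5 and 82.7 CPM in heterozygous and 82.2, 87.2 and 76.3 in homozygous E9.0 libraries (0.06 ± 0.07, edgeR adjusted p = 0.772), and at 72.1, 74.8 and 68.7 against 73.2, 66.3 and 61.7 at E9.5 (-0.10 ± 0.07, adjusted p = 0.617). Polr1b differed by 0.10 ± 0.07 and -0.09 ± 0.07 at the stages, with overlap at both. With single libraries left out, Polr1b ranged from 0.05 (without heterozygous replicate 2) to 0.13 at E9.0 and from -0.14 to -0.02 (without homozygous replicate 3) at E9.5. Polr1d ranged from 0.01 (without homozygous replicate 2) to 0.11 (without homozygous replicate 3) at E9.0 and from -0.16 (without homozygous replicate 1) to -0.04 (without homozygous replicate 3) at E9.5. Polr1a differed by -0.07 ± 0.07 and 0.00 ± 0.06, with overlap at both. Its E9.0 value was -0.02 with heterozygous replicate 1 left out, down to -0.10 over the other left-out libraries, and 0.13 with total counts only; at E9.5 it ranged from -0.05 to 0.05 (without homozygous replicates 1 and 3).

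Averaged over the stages, Rrp1b was the single member of 44 past the threshold, where 2.96% of all genes were called and 1.14% were called lower. Rrp1b encodes a nucleolar partner of protein phosphatase 1 and lies at chr17:32036100-32062865 on the plus strand. It stood at 144, 126 and 134 CPM in heterozygous and at 114, 115 and 118 in homozygous E9.0 libraries. At E9.5 it stood at 96.3, 94.7 and 100 CPM against 92.9, 87.4 and 88.3. The homozygous libraries were lower without overlap at each stage (-0.22 ± 0.06 at E9.0 and -0.12 ± 0.06 at E9.5, edgeR adjusted p of 0.116 and 0.393), and the average was -0.17 ± 0.04 (edgeR adjusted p = 0.0361). The call was lost when any of 9 of the 12 libraries was left out (adjusted p of 0.0275 to 0.0967 over all 12), among them heterozygous E9.0 replicate 1 (-0.14, adjusted p = 0.0577), and with upper-quartile or total-count scaling. With total counts the E9.0 difference was -0.01 and the average -0.07. Exons of Rrp1b overlap Hsf2bp on the other strand.

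**Figure D5:**
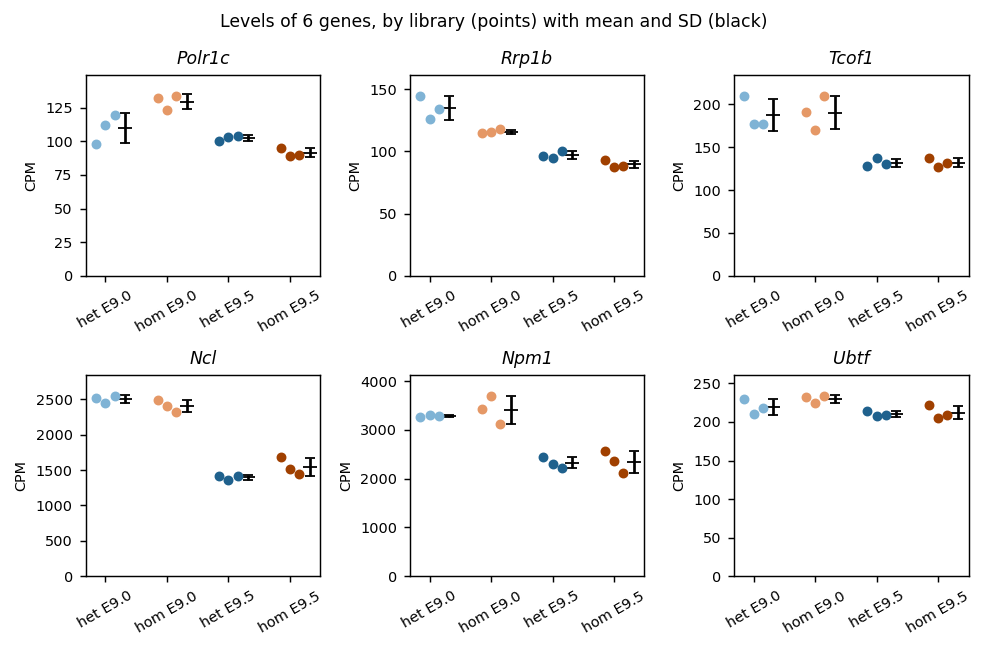
CPM on TMM-scaled library sizes of 6 genes in each library (points, 3 per group) with the group mean and SD in black; the axes start at 0. Polr1c in homozygous libraries lies above the heterozygous ones at E9.0 (123 to 133 against 97.8 to 120 CPM) and below them at E9.5 (88.8 to 95.1 against 99.8 to 104), Rrp1b lies below at both stages, and Ncl lies at 2320 to 2542 CPM at E9.0 and at 1361 to 1686 CPM at E9.5.

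The remaining members with the smallest p-values did not pass the test. Tsr1, an assembly factor of the 40S subunit, stood at 167, 174 and 190 CPM in heterozygous and 195, 207 and 210 in homozygous E9.0 libraries, without overlap (0.20 ± 0.06, edgeR adjusted p = 0.169); with heterozygous E9.0 replicate 1 left out it was 0.16. Over the alternatives the E9.0 difference of Tsr1 was 0.18 to 0.39. Its genotype effect at E9.5 minus that at E9.0 was -0.24 ± 0.08 (edgeR adjusted p = 0.422), and -0.44 to -0.22 over the alternatives. Nop56, a core protein of box C/D snoRNPs, was at 230, 229 and 229 CPM against 209, 208 and 200 at E9.5, without overlap (-0.16 ± 0.05, edgeR adjusted p = 0.182). Its average over stages was -0.10 ± 0.04 (edgeR adjusted p = 0.188), and 0.0004 with total counts only. Ncl at E9.5 was at 1413, 1361 and 1415 CPM in heterozygous and 1686, 1520 and 1439 in homozygous libraries (0.15 ± 0.06, edgeR adjusted p = 0.273; 0.09 without homozygous E9.5 replicate 1). Its genotype effect at E9.5 minus that at E9.0 was 0.21 ± 0.08 (edgeR adjusted p = 0.510), and 0.0013 with total counts only. Rrp12, a 40S and 60S export factor, had an average difference of 0.13 ± 0.05 (edgeR adjusted p = 0.218), and 0.11 to 0.23 over the alternatives.

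Groups without overlap were found for 6 members at E9.0 (Polr1c, Rrp9, Nop14, Rrp12 and Tsr1 higher, Rrp1b lower, against 17.3% of all genes) and for 7 at E9.5 (Noc2l, Noc3l and Ncl higher, Polr1c, Nop56, Imp4 and Rrp1b lower, against 20.9% of all genes). With 3 libraries against 3 the smallest exact two-sided permutation p is 0.1. The difference of the genotype effect between stages passed the edgeR test for 0 of 44 members, where 0.0675% of all genes did, and 5 members had an unadjusted p under 0.05, against 8.60% of all genes. DESeq2 called 1 member (Polr1c, adjusted p = 0.0287; 0.568% of all genes), and limma-voom called 0 (0.0338%). It was below 0 for 35 members (47.9% of all genes), which is the same as saying that the fitted fall between the stages was larger in homozygous libraries for 35 of 44. With single libraries left out, 27 to 38 members were below 0 and the median of -0.06 ranged from -0.10 to -0.04, the ends being the fits without homozygous E9.5 replicate 1 and without homozygous E9.5 replicate 3. With total counts only, 43 were below 0 and the median was -0.26, against -0.19 for all genes.

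The 8 members that hold annotated snoRNAs within their bounds (29 snoRNAs in Taf1d, Nop56, Nop58, Wdr43, Gnl3, Ncl, Tsr1 and Dkc1) had median stage differences of -0.38 in heterozygous and -0.51 in homozygous libraries, and the 36 other members had -0.42 and -0.45. Their median genotype difference of 0.03 (E9.0) and -0.06 (E9.5) compares with 0.06 and -0.01 for the others. Without heterozygous E9.0 replicate 1, the middle values of the 8 at E9.0 were 0.0019 (Nop56) and 0.0093 (Nop58). The counts are of the host transcripts and do not measure the snoRNAs.

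Other genes of the pathway were followed through a list of 100 tested genes with roles in ribosome biogenesis. In these, 0 passed the test between the genotypes at E9.0 or at E9.5, while 64 fell and 0 rose between the stages in heterozygous libraries and 78 fell and 0 rose in homozygous ones, with medians of -0.26 and -0.35. At an unadjusted edgeR p under 0.05, 20 of the 100 were higher in homozygous libraries at E9.0 and 0 lower. Of all genes, 6.76% were higher and 6.54% lower. At E9.5 the counts were 0 higher and 1 lower, against 8.09% and 5.31% of all genes. The dependence of these counts on the scaling or on single libraries was not tested. Of 11 long noncoding snoRNA host transcripts, 0 passed a genotype test, and 8 and 11 fell between the stages, with medians of -0.46 and -0.84. Snhg8 was among them, at -0.51 in heterozygous and -0.96 in homozygous libraries.

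Of 10 genes of the Myc network, 0 passed a genotype test at either stage. Myc fell between the stages in both genotypes (-0.57 ± 0.14 and -0.72 ± 0.14, edgeR adjusted p of 0.00647 and 0.00152). Mycn, more abundant than Myc in these libraries, had mean levels of 164 and 190 CPM in heterozygous and homozygous E9.0 libraries and of 130 and 108 CPM at E9.5. It fell in both genotypes (-0.33 ± 0.08 and -0.82 ± 0.08, edgeR adjusted p of 0.00468 and 1.63e-06), and it differed between the genotypes by 0.21 ± 0.08 (E9.0) and -0.28 ± 0.08 (E9.5; adjusted p of 0.277 and 0.105 by edgeR). Max, the partner of Myc proteins, fell in both genotypes. Of the genes whose products oppose Myc at E-boxes, Mxd3 and Mxi1 rose in both genotypes, Mxd4 rose in heterozygous and Mxd1 in homozygous libraries, and Mnt fell in heterozygous libraries (-0.31, edgeR adjusted p = 0.0260).

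Beside the genotype comparison of the members stands the list of 20 p53 target genes. Of these, 17 passed the test at E9.0, all higher in homozygous libraries, and their sum was 451 to 495 CPM in heterozygous and 758 to 911 CPM in homozygous libraries. At E9.5, 6 passed the test, again higher, with sums of 539 to 558 and 653 to 694 CPM. In the same libraries the 44 members had 0 calls at both stages, where 0.587% (E9.0) and 1.89% (E9.5) of all genes were called. The p53 list was chosen with earlier results of these data known, so its counts are no test of the members.

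Markers of other cell types also differed between the genotypes, mainly at E9.5. All 12 endothelial markers were higher in homozygous E9.5 libraries, 8 of them past the threshold, with sums of 200 to 285 CPM in heterozygous and 360 to 409 CPM in homozygous libraries; at E9.0 the sums were 312 to 336 and 368 to 381 CPM, with 0 of 12 called. Of 12 neural crest markers, 6 were called lower and 1 higher at E9.5, with sums of 696 to 709 and 522 to 633 CPM. At E9.0, 1 was called lower, and the sums were 862 to 947 CPM in heterozygous and 843 to 894 CPM in homozygous libraries. Of 16 facial mesenchyme markers, 7 were called lower and 0 higher at E9.5, with sums of 364 to 590.5 and 346 to 431 CPM, and 0 were called at E9.0 (373 to 415 and 342 to 363 CPM). None of these markers was at 0 counts throughout a group. Their part in the genotype values of the members, Rrp1b included, was not tested.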

How the data were processed

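The authors deposited 1 table of raw counts, whole reads per gene symbol with no normalization, for 12 libraries; all columns matched a sample and 0 were left without one. Per the submitters' processing notes, cutadapt, STAR, featureCounts and MultiQC were used with mm10 (versions, annotation and strand setting are not given in the sources used here). Here the counts were filtered with filterByExpr by group, which left out 9611 symbols holding at most 0.0778% of any library's counts. They were scaled with TMM and fitted with edgeR 4.0.16 (R 4.3.3, limma 3.58.1) in 1 robust quasi-likelihood model of 4 group means, with two-sided tests and p-values adjusted by Benjamini-Hochberg over 14810 genes; the threshold was 0.05. The common biological coefficient of variation was 8.77%. Standard errors are the log2 difference over the square root of F. Intervals cover the spread between libraries. The row Rn45s stayed in the table except where stated.

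The members and lists were chosen with earlier results of these data known. Named are the Treacher Collins and large polymerase I genes, members past the threshold between genotypes, the 3 smallest p of each genotype comparison, the 5 largest falls per genotype and the 5 highest and lowest levels; Polr1e, Ubtf, Rrn3, Nop14, Ltv1, Pno1, Nop16, Npm1, Mybbp1a, Snhg8 and the Myc network genes were chosen after their values were seen. Lengths and positions are from GENCODE M21 (GRCm38), where 23384 symbols matched directly, 677 through a synonym and 360 not at all; the length is that of the transcript with the longest coding sequence. The fit was tested on simulated data. Alternatives were RLE, upper-quartile and total-count scaling, Rn45s left out, DESeq2 1.42.0, limma-voom, all genes with a count, genes averaging at least 50 counts, no robust estimation, a replicate block, offsets for GC content and length, a threshold of 0.01, a 1.2-fold minimum change, only the groups compared, and each library left out.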

Additional observations from a re-analysis of the deposited data

How the results depend on the processing

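The members called at E9.0 and at E9.5 stayed at 0 in all alternatives and left-out libraries. The average called 0 with upper-quartile factors, total counts, an adjusted p under 0.01 and the 1.2-fold test, and 0 to 1 with a library left out. The interaction called 1 (Polr1c) with DESeq2. Total counts gave member medians of 0.25 at E9.0, 0.12 on average and -0.26 for the interaction. Between the stages, members called with total counts were 1 (heterozygous) and 11 (homozygous), where 47.2% and 22.5% of all genes were called in either direction. The 1.2-fold test called 24 in heterozygous libraries, and 15.3% of all genes. Leaving out a library gave 36 to 38 and 40 members, with 27.2% to 36.4% and 27.0% to 36.8% of all genes called. Median stage differences were -0.032 and -0.30 with total counts and -0.31 and -0.39 with total counts without Rn45s; in homozygous libraries GC and length offsets gave -0.51 and left-out libraries -0.51 to -0.42. The cause was not tested.

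Of the values of named genes, 767 kept their direction and side of the threshold, 17 kept only their direction and 1 newly passed (Polr1c with DESeq2). Signs turned for values that did not pass the test: Tcof1 at E9.0 (-0.00111 with GC offsets; -0.054 to 0.10 with a library left out) and at E9.5 (-0.00356 with total counts, -0.00970 with GC offsets, -4.07e-05 with total counts without Rn45s; -0.024 to 0.035 with a library left out), Polr1a at E9.0 (0.13 with total counts) and at E9.5 (0.00143 with RLE, 0.00344 with upper quartile, 0.00153 with DESeq2, 0.00366 with a mean of at least 50 counts; -0.046 to 0.053 with a library left out), and the average of Nop56 (0.000406 with total counts).

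After each gene's group mean was subtracted, the log2 CPM of same-numbered libraries from different groups correlated at -0.167 to 0.109. The numbers were therefore not taken to pair libraries. With the replicate number as a block, 0 members were called at E9.0 and at E9.5, and Rrp1b on average (-0.17, edgeR adjusted p = 0.0461). Between the stages 37 and 40 members were called, where 33.9% and 33.8% of all genes were called in either direction. The smallest count of a member in a library was 567.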
